A study of Homo sapiens with 8 samples.

Results

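The 7 genes described here, *CALD1*, *ANTXR1*, *CCDC80*, *NEURL1B*, *DYNLRB1*, *HSD17B10* and *TMED4*, were selected on the authors' fold changes and p-values between shEn1 and shScr: a volcano plot of human SUIT2 cells names them as upregulated upon *EN1* knockdown. *EPHA7* and *MXD4*, which carry the same mark in that plot, were left aside. All 7 were found by their Entrez number among the 25702 genes counted in each library, and all 7 passed a filter on low counts that kept 14333 genes. Their values in the comparison between knockdown and control are given as a description with no test, because that comparison chose them.

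SUIT2 is an established human pancreatic ductal adenocarcinoma (PDA) cell line, labelled here as epithelial cells from pancreas. RNA-seq was performed in 8 libraries: 4 carry a scramble short hairpin RNA (shScr_1 to shScr_4), 2 carry the first hairpin against *EN1* (shEn1_1.1 and shEn1_1.2) and 2 carry the second (shEn1_2.1 and shEn1_2.2). The genotype is labelled NA, all 8 libraries share the cell line, and no time after transduction is given. The labels do not say whether libraries of a group came from separate cultures, so the spread between them may be technical.

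Caldesmon, the product of *CALD1*, binds actin and myosin and restrains actomyosin contraction. *ANTXR1* encodes a membrane receptor that binds collagen and anthrax toxin, and *CCDC80* a secreted protein of the extracellular matrix. *NEURL1B* encodes a ubiquitin ligase that acts on Notch ligands, and *DYNLRB1* a roadblock light chain of the cytoplasmic dynein motor. *HSD17B10* encodes a mitochondrial dehydrogenase of isoleucine breakdown that is also a subunit of mitochondrial RNase P, and *TMED4* a p24 cargo receptor of the early secretory pathway. EN1, the factor targeted by the hairpins, is a homeobox transcription factor. The 7 products therefore work in the cytoskeleton, the matrix, signalling, transport and mitochondria, and they belong to no single pathway.

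The sequence upstream of these genes differed widely in its content of CG dinucleotides, the sites of DNA methylation. RefSeq promoter sequences of build GRCh38.p14 were matched for 6 of the 7 genes, all but *TMED4*, with 12 start sites in all. Only the 250 bases before each start were read. The 35116 promoters of that table had a median of 11 CG dinucleotides (10th percentile 1, 90th percentile 31) and a median GC content of 58%. *CCDC80* tied with a start site of *CALD1* for the fewest, and *NEURL1B* had the most. *CCDC80*, *NEURL1B* and 1 of the 2 nearly coincident start sites of *HSD17B10* between them are shown to make this contrast visible. Each is written 5′ to 3′ on the strand of its gene, with CG dinucleotides in capitals.
CCDC80, chr3:112641144-112641393, minus strand: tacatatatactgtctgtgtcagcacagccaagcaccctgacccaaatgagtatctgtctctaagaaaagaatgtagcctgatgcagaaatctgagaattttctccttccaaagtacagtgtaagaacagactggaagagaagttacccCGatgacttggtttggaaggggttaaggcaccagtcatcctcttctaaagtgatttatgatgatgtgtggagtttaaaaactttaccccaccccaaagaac
HSD17B10, chrX:53434377-53434626, minus strand: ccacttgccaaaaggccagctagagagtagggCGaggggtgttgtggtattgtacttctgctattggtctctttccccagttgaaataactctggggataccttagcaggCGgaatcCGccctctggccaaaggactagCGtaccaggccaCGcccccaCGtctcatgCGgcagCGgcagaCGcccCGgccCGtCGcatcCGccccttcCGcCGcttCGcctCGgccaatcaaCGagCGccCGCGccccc
NEURL1B, chr5:172641013-172641262, plus strand: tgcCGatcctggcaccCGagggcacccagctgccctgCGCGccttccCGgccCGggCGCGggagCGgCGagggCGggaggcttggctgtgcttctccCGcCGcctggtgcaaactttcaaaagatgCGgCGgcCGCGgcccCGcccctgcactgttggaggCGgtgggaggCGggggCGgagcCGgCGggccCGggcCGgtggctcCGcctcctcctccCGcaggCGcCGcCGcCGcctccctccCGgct
The *CCDC80* sequence holds 1 CG dinucleotide at 42% GC. The *HSD17B10* sequence holds 21 at 63.2% GC. The *NEURL1B* sequence holds 32 at 78.4% GC. The 4 start sites of *CALD1* held 1 to 5, the 2 of *ANTXR1* 16 and 17, and the 2 of *DYNLRB1* 9 and 16.

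Short motifs were counted on both strands of the same 250 bases. The homeodomain core TAATTA was found in 0 of the 12 member sequences and in 4.35% of all promoters. The E-box CACGTG was also found in 0 of the 12 and in 6.34% of all promoters. The AP-1 site TGANTCA was found in 1 *CALD1* sequence (6.57% of all promoters), and the TEAD site CATTCC in 2 other *CALD1* sequences (11.9%). These matches describe letters in a window and say nothing of binding.

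*EN1* itself (Entrez 2019; GRCh37 chr2:119599747-119605224, minus strand) checks the labels. It had 4.10, 4.50, 4.94 and 2.51 counts per 1000000 (CPM, scaled with edgeR's TMM factors) in shScr_1 to shScr_4, 5.77 and 5.41 CPM in shEn1_1.1 and shEn1_1.2, and 1.35 and 6.70 CPM in shEn1_2.1 and shEn1_2.2. The transcript was thus lowest in shEn1_2.1 and shScr_4 and was not lower in the other 3 libraries labelled shEn1 than in any labelled shScr. The shScr libraries averaged 4.01 ± 1.06 CPM and the shEn1 libraries 4.81 ± 2.37 CPM (SD, n = 4 each). These levels rest on 53 to 218 counts per library. The paper also reports quantitative PCR of *EN1* in SUIT2 cells with hairpins beside a scramble control, which was not examined here. Because 3 of the 4 knockdown libraries go against their label in *EN1* transcript, each group below means the libraries labelled so.

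The libraries held 33423590 to 37810604 counts, so depth differed little. The first principal component (44.4% of the variance) set shScr_4 and shEn1_2.1 apart from the other 6 libraries. All 8 epithelial markers were detected, with a summed level of 15085 to 18754 CPM in shScr_1, shScr_2, shEn1_1.2 and shEn1_2.2 and of 11482 to 12112 CPM in the other 4. Of the fibroblast markers, *DCN*, *LUM*, *COL1A2* and *COL3A1* were at 0 in every library, and the list of 8 summed to 1.33 to 4.28 CPM in shScr and 1.17 to 2.86 CPM in shEn1. Of 5 endothelial markers 3 were at 0 (summed level 0.316 to 0.676 CPM), and the immune markers *PTPRC* and *CD3E* were at 0 while all 6 summed to 8.97 to 36.3 CPM. The files' column headers number the paired datasets given to the aligner. Numbers 17 to 24 belong to shScr_1, shScr_2, shEn1_1.1 and shEn1_2.1, and numbers 25 to 32 to the other 4 libraries. The headers do not say that these numbers mark a batch.

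The cytoskeletal and matrix genes were measured at low levels and differed several-fold between libraries of the same label. *CALD1* (Entrez 800; GRCh37 chr7:134429003-134655480, plus strand) had 1.21, 1.02, 4.85 and 7.48 CPM in shScr_1 to shScr_4, 5.69 and 0.706 CPM in shEn1_1.1 and shEn1_1.2, and 6.50 and 1.17 CPM in shEn1_2.1 and shEn1_2.2. Its transcript was high in shScr_3, shScr_4, shEn1_1.1 and shEn1_2.1 and low in the other 4, so both labels held high and low libraries. The 2 sets were 4.02-fold apart at their nearest libraries, with 40 counts in shScr_1 (95% exact Poisson interval 28.6 to 54.5) and 169 in shScr_3 (144 to 196). Such intervals cover counting error only.

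*ANTXR1* (Entrez 84168; GRCh37 chr2:69240308-69476459, plus strand) had 1.45, 1.32, 7.78 and 9.13 CPM in shScr_1 to shScr_4, 7.51 and 2.12 CPM in the shEn1_1 pair, and 11.7 and 0.860 CPM in the shEn1_2 pair. The receptor transcript was highest in shEn1_2.1 and lowest in shEn1_2.2, which carry the same hairpin and differ by 13.6-fold. The same 4 libraries as for *CALD1* were high, and the nearest high and low libraries were 3.54-fold apart.

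*CCDC80* (Entrez 151887; GRCh37 chr3:112315644-112368377, minus strand) had 0.422, 0.647, 4.45 and 3.02 CPM in shScr_1 to shScr_4, 3.14 and 0.618 CPM in the shEn1_1 pair, and 4.32 and 0.584 CPM in the shEn1_2 pair. The highest and the lowest library, shScr_3 and shScr_1, both carry the scramble hairpin. This was the member with the fewest counts, 14 in shScr_1 (95% exact Poisson interval 7.65 to 23.5), yet the nearest high and low libraries, shScr_4 and shScr_2, were 4.66-fold apart. These 2 libraries held 113 and 24 counts.

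**Figure D1:**
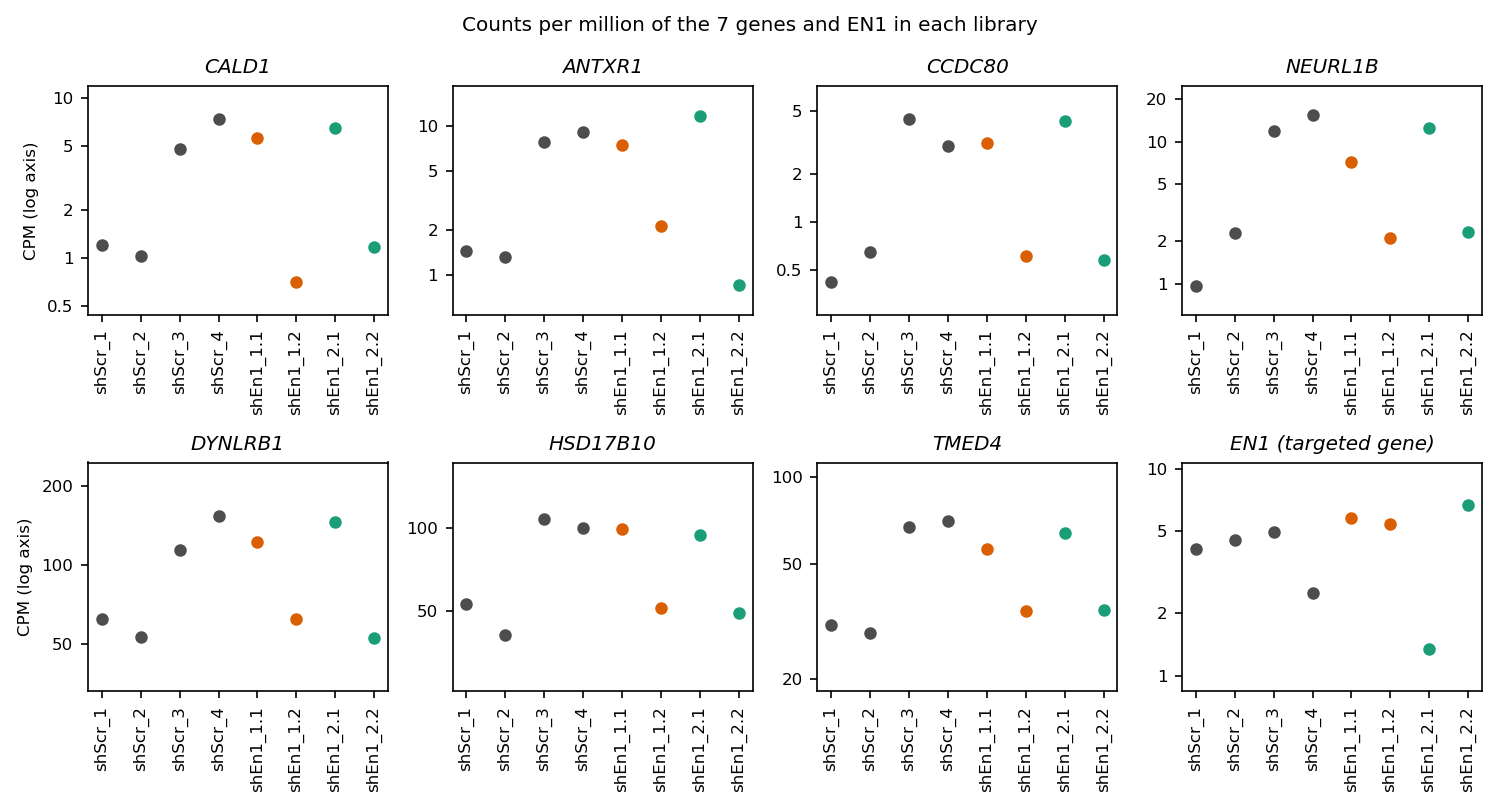
CPM of each of the 7 genes and of *EN1* in the 8 libraries, on log axes. Each point is 1 library: grey shScr, orange shEn1_1 and green shEn1_2. The 7 genes are high in shScr_3, shScr_4, shEn1_1.1 and shEn1_2.1 and low in the other 4 libraries, while *EN1* is lowest in shEn1_2.1 at 1.35 CPM.

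The Notch ligand ubiquitin ligase *NEURL1B* (Entrez 54492; GRCh37 chr5:172068266-172118543, plus strand) had 0.964, 2.27, 11.8 and 15.4 CPM in shScr_1 to shScr_4, 7.23 and 2.09 CPM in the shEn1_1 pair, and 12.4 and 2.30 CPM in the shEn1_2 pair. The highest and the lowest library, shScr_4 and shScr_1, were both controls and lay 16-fold apart, the widest range of the 7 genes. The nearest high and low libraries were 3.14-fold apart.

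The transport and mitochondrial genes had many more counts and a narrower range. *DYNLRB1* (Entrez 83658; GRCh37 chr20:33104200-33128762, plus strand) had 62.1, 53.0, 114 and 154 CPM in shScr_1 to shScr_4, 123 and 62.3 CPM in the shEn1_1 pair, and 147 and 52.8 CPM in the shEn1_2 pair. The dynein light chain was high in the same 4 libraries, with a range of 2.91-fold over all 8 and 1.83-fold between the nearest high and low libraries.

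*HSD17B10* (Entrez 3028; GRCh37 chrX:53458206-53461317, minus strand) had 52.9, 40.8, 108 and 100.1 CPM in shScr_1 to shScr_4, 99.1 and 51.3 CPM in the shEn1_1 pair, and 94.7 and 49.1 CPM in the shEn1_2 pair. Its 4 high libraries lay within 94.7 to 108 CPM and its 4 low ones within 40.8 to 52.9 CPM.

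*TMED4* (Entrez 222068; GRCh37 chr7:44617493-44621886, minus strand) had 30.7, 28.9, 67.2 and 70.4 CPM in shScr_1 to shScr_4, 56.2 and 34.4 CPM in the shEn1_1 pair, and 64.3 and 34.6 CPM in the shEn1_2 pair. The cargo receptor had the narrowest range of the 7, 2.43-fold, and again the same high and low libraries. In the annotation no exon of the 7 genes overlapped an exon of another gene in the files. Exons of genes that were matched to no identifier in the files shared 383 bases with *NEURL1B* (opposite strand), 666 bases with *DYNLRB1* and 218 bases with *HSD17B10* (both same strand), so reads from them could be counted for these members. *MIR3126*, which lies in an intron of *ANTXR1*, had 0 counts in every library.

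All 7 genes therefore shared the same 4 highest libraries, 2 labelled shScr and 1 of each hairpin. This choice of 4 was the most frequent among all tested genes: 856 of 14333 (5.97%) had it, of 70 possible choices, and 753 (5.25%) had the inverse. *NEURL1B*, *ANTXR1*, *CALD1* and *CCDC80* had log2 ranges over the 8 libraries of 3.92, 3.68, 3.30 and 3.24, at or above the 96.5th percentile of all tested genes. *DYNLRB1*, *HSD17B10* and *TMED4* had ranges of 1.54, 1.40 and 1.28, at percentiles 80.6, 77.5 and 74.3. The median range over all tested genes was 0.76.

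The step between the 4 highest and the 4 lowest libraries of a gene was wider in these genes than in nearly all others. It was 2.13 on the log2 scale for *CCDC80* and 0.70 for *TMED4*, the extremes of the 7. The median over all tested genes was 0.065. The 7 genes were chosen on values of these same libraries. Setting them beside genes not so chosen cannot show whether their steps are unusual. The same limit holds for their shared 4 highest libraries and ranges above and their pair differences below. Within the hairpin pairs, shEn1_1.1 exceeded shEn1_1.2 by 0.71 (*TMED4*) to 2.91 (*CALD1*) and shEn1_2.1 exceeded shEn1_2.2 by 0.89 (*TMED4*) to 3.68 (*ANTXR1*), also on the log2 scale. The median absolute difference over all tested genes was 0.29 in the first pair and 0.33 in the second. The summed epithelial marker level was lower in the 4 libraries where the 7 genes were high, and its part in the result was not tested.

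**Figure D2:**
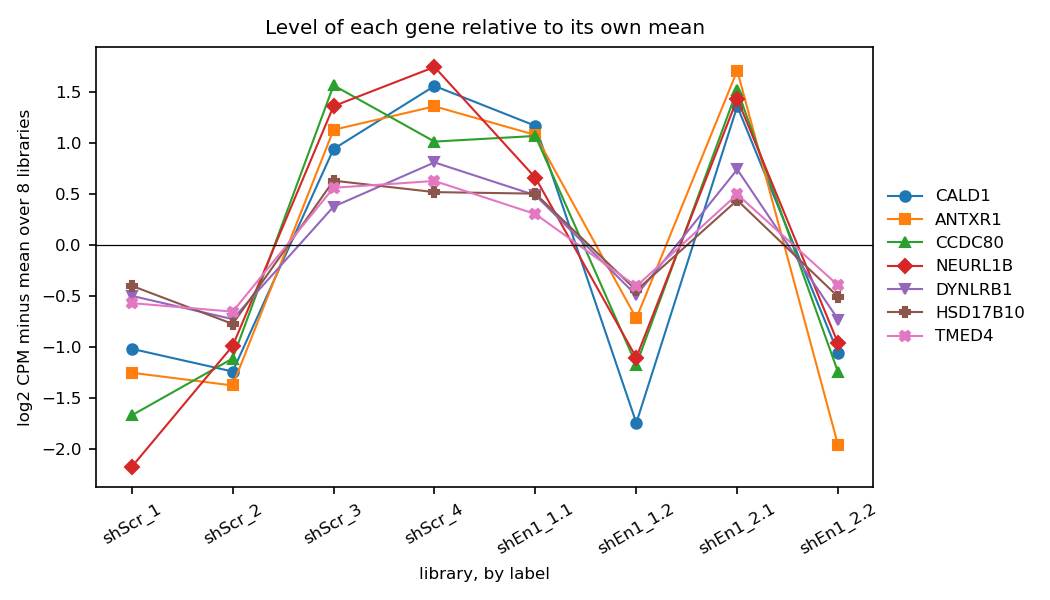
Log2 CPM of each of the 7 genes minus its own mean over the 8 libraries, by library label. Lines join the points of 1 gene and do not mark an order in time. All 7 lines lie above 0 in the same 4 libraries, and *CALD1*, *ANTXR1*, *CCDC80* and *NEURL1B* move farther from 0 than *DYNLRB1*, *HSD17B10* and *TMED4*.

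Between the labels the means of the 7 genes differed by less than the spread within a label. *CALD1* had a mean of 3.64 ± 3.11 CPM for shScr and 3.52 ± 3.0 CPM for shEn1 (SD, n = 4 each). *NEURL1B* had 7.61 ± 7.09 CPM for shScr and 6.0 ± 4.88 CPM for shEn1. *DYNLRB1* had 95.7 ± 47.1 CPM for shScr and 96.2 ± 45.8 CPM for shEn1. In each case the SD within a label was several times the difference between the means.

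The fitted log2 fold changes of shEn1 minus shScr over all 8 libraries were smaller than their standard errors. They were -0.05 for *CALD1* (standard error 0.83), 0.17 for *ANTXR1* (0.86), 0.02 for *CCDC80* (0.86), -0.34 for *NEURL1B* (0.86), 0.01 for *DYNLRB1* (0.42), -0.04 for *HSD17B10* (0.36) and -0.06 for *TMED4* (0.34). The estimate was positive for 3 of the 7 and negative for 4, with a median of -0.038 beside -0.0028 over all tested genes. Over all tested genes, edgeR called 0% at an adjusted p below 0.05 (0.307% at an unadjusted p below 0.05, and DESeq2 called 0.014%). The 7 genes were among those not called, 0 of 7, and nothing is read from that count because this comparison chose them. The shEn1 libraries did not separate from the shScr libraries in any of the 7, where 0.167% of all tested genes had every shEn1 library above and 0.251% had every shEn1 library below. The median of the 7 was -0.02 without shScr_4 and shEn1_2.1, ran from -0.48 to 0.26 when single libraries were left out, and was 1.02 with the replicate number as a block. In that blocked fit all 7 were positive and larger than their standard errors, from 0.58 for *HSD17B10* (0.16) to 1.34 for *ANTXR1* (0.69). It takes nothing from shScr_3 and shScr_4, which have no partner number. Its controls are therefore shScr_1 and shScr_2, both low in all 7 genes.

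The direction differed between the lower and the higher dataset numbers in the file headers, a split made after the values were seen. It restates the 4 high libraries above, since the lower numbers hold the 2 high shEn1 and the 2 low shScr libraries and the higher numbers hold the reverse. Among numbers 17 to 24, both shEn1 libraries lay above both shScr libraries in 7 of the 7 genes, as they did in 17.7% of all tested genes (18% had both below). Among numbers 25 to 32, both shEn1 libraries lay below both shScr libraries in 7 of the 7 genes, as in 21% of all tested genes (21.8% had both above). *CALD1* had means of 1.11 CPM for shScr and 6.09 CPM for shEn1 in the lower numbers, and of 6.16 and 0.937 CPM in the higher numbers. *TMED4* had 29.8 and 60.3 CPM in the lower numbers, and 68.8 and 34.5 CPM in the higher numbers.

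The log2 difference of shEn1 minus shScr ran from 1.01 (*TMED4*) to 2.71 (*ANTXR1*) in the lower numbers. In the higher numbers it ran from -2.65 (*CALD1*) to -0.995 (*TMED4*). The medians of the 7 were 2.39 and -2.50, beside -0.011 and 0.0045 over all tested genes. This reversal between the lower and the higher numbers was seen in 1390 tested genes (9.70%), and the opposite reversal in 1411 (9.84%). A shift in 1 direction in both was rarer, with 72 genes above and 92 below. *EN1* had means of 4.30 CPM for shScr and 3.56 CPM for shEn1 in the lower numbers, and of 3.72 and 6.06 CPM in the higher numbers. In the lower numbers *EN1* lay above both shScr libraries in shEn1_1.1 (5.77 CPM) and below both in shEn1_2.1 (1.35 CPM). Its lower mean there thus rested on shEn1_2.1. With 2 libraries against 2, no test was made of either difference or of the reversal.

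**Figure D3:**
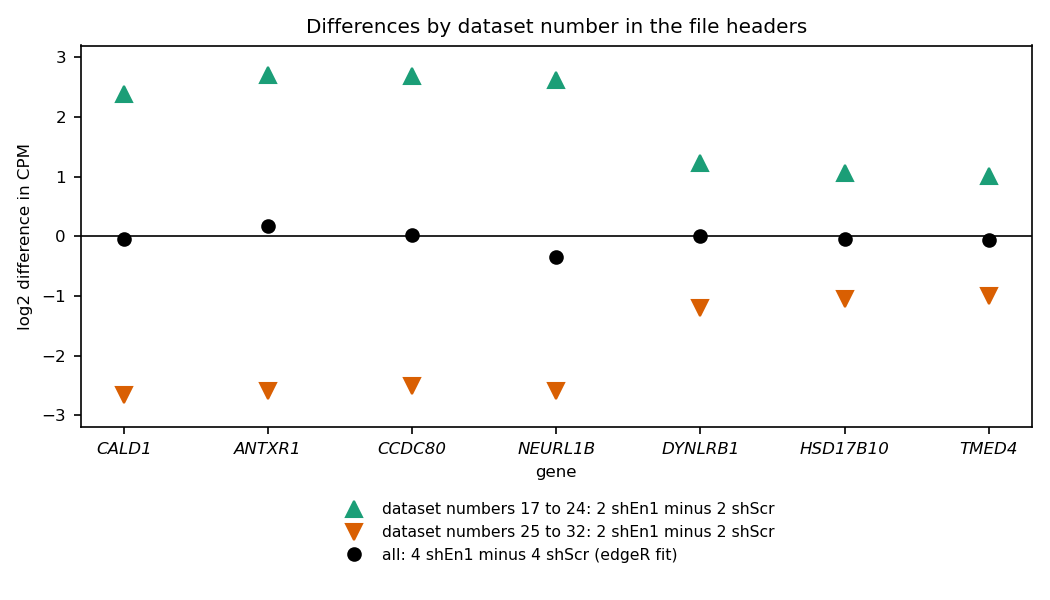
Log2 difference in CPM of shEn1 minus shScr for each of the 7 genes. Upward triangles are the 4 libraries with dataset numbers 17 to 24, downward triangles the 4 with numbers 25 to 32, and black points the fit over all 8. All 7 genes are above 0 in the first and below 0 in the second, and the fit over all libraries lies between -0.34 and 0.17.

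Each hairpin was also set beside the control, with the same 4 shScr libraries in both comparisons. *NEURL1B* had a log2 difference of -0.71 for shEn1_1 (standard error 1.16) and -0.05 for shEn1_2 (1.12). *ANTXR1* had -0.03 (1.14) and 0.35 (1.12), *CALD1* -0.19 (1.09) and 0.08 (1.08), and *CCDC80* -0.18 (1.12) and 0.20 (1.1). *DYNLRB1*, *HSD17B10* and *TMED4* lay between -0.12 and 0.06 for both hairpins, with standard errors of 0.45 to 0.55. Every one of these differences was smaller than its standard error.

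The difference between the hairpins is not the comparison the genes were selected on, though it uses the same shEn1 libraries. It was tested in a fit with 3 groups. *NEURL1B* had the largest log2 difference of shEn1_2 minus shEn1_1, 0.66 (standard error 1.30; edgeR's adjusted p was 1.00). *CCDC80* (0.39, standard error 1.28), *ANTXR1* (0.38, 1.31), *CALD1* (0.27, 1.25), *TMED4* (0.13, 0.51) and *DYNLRB1* (0.11, 0.64) were also higher, and *HSD17B10* was lower (-0.06, 0.54; 0.025 when scaled by library size only), all with adjusted p = 1.00 by edgeR. The median of the 7 was 0.27 beside 0.0016 over all tested genes. None of the 7 passed the threshold in edgeR, DESeq2 or limma-voom, and 0 had an unadjusted p below 0.05 in edgeR, where the share of all tested genes called was 0% (1.07% at an unadjusted p below 0.05). The pairs overlapped in all 7 genes, where 12.8% of tested genes had both shEn1_2 libraries above both shEn1_1 libraries and 12.7% had them below. Each pair held a high and a low library in all 7 genes, so this overlap restates their shared 4 highest libraries. With standard errors near 1.3 for the 4 wider genes, a difference of 2-fold between the hairpins was not detectable. The median was -1.04 without shEn1_2.1 and 1.56 without shEn1_1.1, so its direction rested on single libraries.

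**Figure D4:**
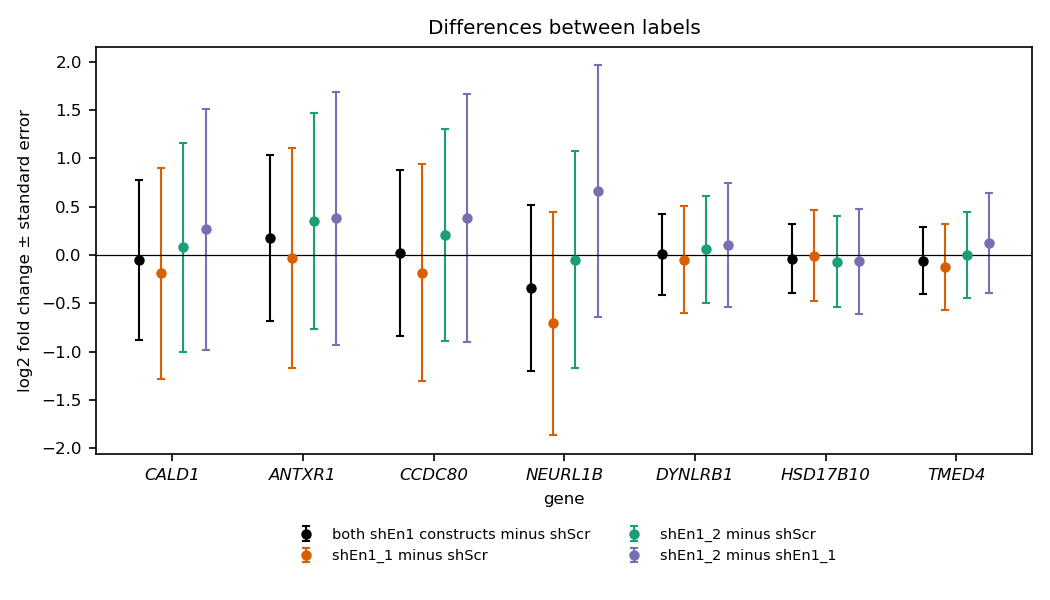
Fitted log2 fold changes of the 7 genes with their standard errors: both hairpins minus shScr (black), shEn1_1 minus shScr (orange), shEn1_2 minus shScr (green) and shEn1_2 minus shEn1_1 (purple). Every bar of 1 standard error crosses 0, and the bars of *CALD1*, *ANTXR1*, *CCDC80* and *NEURL1B* are the widest.

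Genes that work with the 7 were read in the same fits, and 0 of them passed the threshold in either direction, between the labels or between the hairpins, nor had an unadjusted p below 0.05 in edgeR. Over all tested genes 7006 were higher and 7327 lower in shEn1. Of 20 tested actin partners of caldesmon, 14 were higher and 6 lower in shEn1, with a median log2 fold change of 0.039. *MYLK*, the myosin light chain kinase, had 6.72, 4.80, 5.57 and 27.7 CPM in shScr_1 to shScr_4, 5.46 and 8.12 CPM in the shEn1_1 pair, and 33.8 and 2.86 CPM in the shEn1_2 pair. *MYL9*, a regulatory myosin light chain, had 5.15, 3.26, 5.97 and 19.6 CPM, then 5.18 and 5.71 CPM, then 16.9 and 2.70 CPM in the same order. Both were highest in shScr_4 and shEn1_2.1, the libraries apart on the first principal component.

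The matrix list around *ANTXR1* and *CCDC80* had the widest spread, a median log2 range of 1.78 over 15 tested genes, of which 9 were higher and 6 lower in shEn1 (median 0.032). *LOX*, which crosslinks collagen, had 1.72, 1.75, 7.83 and 3.92 CPM in shScr_1 to shScr_4, 10.9 and 2.88 CPM in the shEn1_1 pair, and 4.22 and 2.06 CPM in the shEn1_2 pair. *LOX* thus had the same 4 highest libraries as the 7 genes, as did *COL5A1*, *COL6A1*, *COL6A2*, *FN1* and *LRP6*. These are 6 of the 15 (40%), beside 5.97% of all tested genes. *LRP6* ran only from 40.6 CPM in shScr_1 to 56.1 CPM in shEn1_2.1. *COL5A1*, a fibrillar collagen, ran from 0.0539 CPM in shScr_2, a level of very few reads, to 1.93 CPM in shEn1_2.1. *ANTXR2*, the paralog of *ANTXR1*, ran only from 45.5 CPM in shScr_2 to 87.8 CPM in shEn1_2.1. Of the sushi-repeat relatives of *CCDC80*, *SRPX* lay between 3.29 and 8.30 CPM. *SRPX2* had 2.70 CPM in shScr_4 and 2.44 CPM in shEn1_2.1 and between 8.15 and 11.2 CPM in the other 6 libraries.

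Around *NEURL1B*, 8 of 15 tested Notch ligands, receptors and partners were higher and 7 lower in shEn1 (median 0.0083), and *JAG2* alone had the same 4 highest libraries. *NOTCH3*, a receptor, ran from 0.603 CPM in shScr_1 to 4.33 CPM in shScr_4, and *DLL4*, a ligand, from 0.112 CPM in shEn1_1.1 to 0.940 CPM in shEn1_2.1. The low end of *DLL4* rests on few reads. The paralog *NEURL1* ran from 1.87 CPM in shScr_1 to 4.68 CPM in shEn1_1.2. Its highest library was among the low ones of *NEURL1B*.

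The partners of *DYNLRB1*, *HSD17B10* and *TMED4* varied little. The 21 tested dynein and dynactin genes had a median log2 range of 0.47. Of them 3 (*DYNLT1*, *DCTN1* and *DCTN2*, 14.3%) shared the 4 highest libraries, beside 5.97% of all tested genes. The neuronal intermediate chain *DYNC1I1* was an exception, from 0.0301 CPM in shScr_1 to 1.68 CPM in shScr_4, while *DYNC1I2* lay between 66.1 and 129 CPM. The range of *DYNC1I1* rests on very few reads at its low end. *DYNLRB2*, the paralog of *DYNLRB1*, had no count in 6 of the libraries and at most 0.172 CPM. The 13 mitochondrial RNA processing and isoleucine breakdown genes had a median range of 0.50, with 2 higher and 11 lower in shEn1. Their median log2 fold change was -0.045. *BCKDHA*, a subunit of the branched-chain keto acid dehydrogenase, was among the 3 (23.1%) that shared the 4 highest libraries. It ran from 14.0 CPM in shEn1_1.2 to 23.9 CPM in shScr_4. *TRMT10C*, which joins *HSD17B10* in mitochondrial RNase P, lay between 32.1 CPM in shScr_4 and 54.2 CPM in shEn1_1.1.

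Of the 29 p24 and vesicle coat genes around *TMED4*, 8 were higher and 21 lower in shEn1, beside 7006 and 7327 of all tested genes. Their median log2 fold change was -0.023 and their median range 0.40. *TMED9*, a relative of *TMED4*, lay between 175 and 225 CPM, and *TMED7* between 77.1 CPM in shScr_4 and 140 CPM in shScr_2. *SEC24A*, a cargo adaptor of COPII vesicles, lay between 39.4 CPM in shScr_3 and 65.7 CPM in shEn1_2.1. *KDELR1* alone shared the 4 highest libraries with *TMED4*, and *SEC23B* had the inverse.

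**Figure D5:**
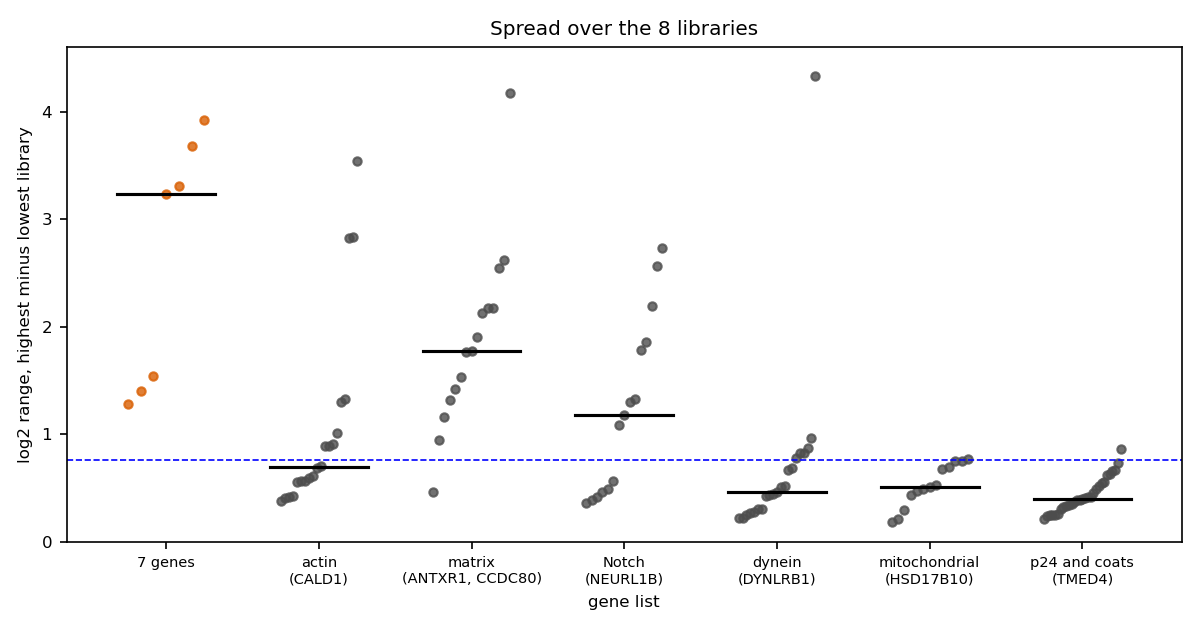
Log2 range over the 8 libraries (highest minus lowest) of each of the 7 genes and of the tested genes in each related list. Each point is 1 gene, black bars are list medians and the dashed line is the median of all tested genes, 0.76. The medians of the matrix list (1.78) and the Notch list (1.18) lie above the dashed line and those of the other 4 related lists lie below it.

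The profile of each gene was also matched against all tested genes with a symbol other than the 7 themselves. Likeness was measured as the root mean square (RMS) difference of mean-centred log2 CPM over the 8 libraries, where 0 is an identical profile. Outside the 7, *CALD1* was most like *TCF7L1* (0.31), *FXYD6* (0.32) and *HUNK* (0.35). *ANTXR1* was most like *NPAS3* (0.23), *ITGA2B* (0.40) and *ABCB1* (0.44). *CCDC80* was most like *ITGA2B* (0.28), *NPAS3* (0.37) and *SYT3* (0.43). *ITGA2B* and *NPAS3*, which 2 members share, had at most 0.0589 CPM in the 4 low libraries and 0.336 to 0.508 CPM in the high ones. *TCF7L1* (0.0589 CPM in shEn1_1.2) and *SYT3* (0.0603 CPM in shScr_1) also came near 0. At such levels the small count added before taking log2 shapes the profile.

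*NEURL1B* was most like *LRP1* (0.40), *C1QTNF2* (0.42) and *ADGRB2* (0.44). *LRP1*, an endocytic receptor, had 6.21, 10.7, 58.1 and 47.9 CPM in shScr_1 to shScr_4, 23.3 and 10.95 CPM in the shEn1_1 pair, and 42.0 and 15.6 CPM in the shEn1_2 pair, so its high and low libraries were the same. *DYNLRB1* was most like *MSRB3* (0.13), *NMNAT2* (0.14) and *AJM1* (0.16). *HSD17B10* was most like *ARHGEF17-AS1* (0.13), *SMPD1* (0.14) and *WNT2B* (0.14). *C1QTNF2* (0 CPM in shScr_1) and *WNT2B* (at most 0.854 CPM) were also at low levels. *TMED4* was most like *ZNF385A* (0.10) and *SMPD1* (0.12). *HSD17B10* was closer to *TMED4* (0.12), and *NEURL1B* to *CCDC80* (0.37), than to any gene outside the 7. Every other member was closer to the first gene named for it than to any member. *HSD17B10* and *TMED4* were the closest pair of the 7. *ANTXR1* and *CCDC80* differed by 0.40, and *NEURL1B* and *HSD17B10* were the most distant (0.93).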

How the data were processed

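RNA was measured in 8 SUIT2 libraries, grouped by their titles. For each Entrez gene the authors deposited raw read counts, made by aligning paired-end reads with HISAT2 and counting with featureCounts. The labels list build mm9, the study's methods give hg19 for human samples, and the gene identifiers are human. Tool versions, annotation and strand setting are not given in the sources used here, so antisense reads could be shared.

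Symbols came from RefSeq (23696 of 25702 identifiers matched; the other 2006 held 0.214% to 0.257% of counts), positions from GENCODE on GRCh37, and promoters from RefSeq on GRCh38.p14. No 2 libraries were identical. Genes were filtered with filterByExpr (minimum count 10), scaled with TMM factors (0.962 to 1.07) and tested by quasi-likelihood in edgeR 4.0.16 (robust glmQLFit, then glmQLFTest) under R 4.3.3, with Benjamini-Hochberg adjustment over all tested genes and a threshold of 0.05. Standard errors are log2 fold changes over the root of F, and log2 CPM used a prior count of 2. The contrast of shEn1 with shScr pooled both hairpins, and a fit with 3 groups compared the hairpins. P-values measure only the spread between these libraries.

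The alternatives were DESeq2 1.42.0, limma-voom (limma 3.58.1), other scalings and filters, a replicate block and leaving out libraries. The fits without shScr_4 and shEn1_2.1 and those by header dataset number were added after the values were seen. The scripts were tested on simulated counts with 4-fold changes. Beyond the 7 genes and *EN1*, the genes named are the paralogs, the 2 genes with the widest range in each related list, overlapping genes and the 3 genes most alike in profile; *VAMP7* and the related genes that share the members' 4 highest libraries were named after their values were seen. A gene that this rule names is not reported here. The members and lists were chosen with earlier results of these data known.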

Additional observations from a re-analysis of the deposited data

Results flagged for a closer look

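*EN1* in shEn1_2.1 was far from the other 3 libraries labelled shEn1, at 1.35 CPM against 5.41 to 6.70 CPM. The TMM scaling factor of the same library was 1.07, also far from those of the other 3. A control library, shScr_4, had a similar factor (1.06) and the next lowest *EN1* (2.51 CPM). Of the 18 groups of 4 values examined in this way, chance alone would flag about 0.9.

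In 7 of the 7 genes both shEn1 libraries lay above both shScr libraries among header dataset numbers 17 to 24 and below them among numbers 25 to 32. This pattern was seen in 1390 tested genes (9.70%), and the opposite pattern in 1411 (9.84%). In the 7 genes it restates that they share their 4 highest libraries. The medians of their log2 differences were 2.39 and -2.50. The difference between them was not tested, and the numbers are not stated to mark a batch.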

How the results depend on the processing

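Between the hairpins, 0 genes, 0 members and 0 related genes were called in every setting run, and between shEn1 and shScr 0 related genes were called in every setting run. Between shEn1 and shScr, where 0 genes were called, DESeq2 called 2 (*VAMP7* and an identifier without a symbol), the fit without shScr replicate 4 and shEn1_2 replicate 1 called 1 (*VAMP7*), and leaving out single libraries gave 0 to 1 (*VAMP7* without shScr replicate 4). The members' median log2 difference across fits that left out 1 library ran from -0.48 to 0.26 for shEn1 minus shScr, -1.21 to 0.41 for shEn1_1 minus shScr, -1.65 (without shEn1_2 replicate 1) to 0.70 for shEn1_2 minus shScr, and -1.04 (without shEn1_2 replicate 1) to 1.56 (without shEn1_1 replicate 1) for shEn1_2 minus shEn1_1. The last was -1.01 without both shScr replicate 4 and shEn1_2 replicate 1. In that fit it was -1.45 for *CALD1*, -2.48 for *ANTXR1*, -1.68 for *CCDC80*, -1.01 for *NEURL1B*, -0.81 for *DYNLRB1* and -0.39 for *TMED4*. Leaving out single libraries, it ran from -1.48 to 2.44 in *CALD1*, from -2.51 to 1.56 in *ANTXR1*, from -1.71 to 1.99 in *CCDC80*, -1.04 to 1.81 for *NEURL1B*, -0.83 to 0.68 for *DYNLRB1*, -0.64 to 0.49 for *HSD17B10* and -0.41 to 0.52 for *TMED4*. It turned negative for *ANTXR1* in limma-voom (-0.22) and positive for *HSD17B10* with library size only (0.025). The cause was not tested in any of these cases, beyond the fewer libraries where some were left out. The block of header dataset numbers called 0 genes, with a median of 0.0059 for shEn1 minus shScr. Libraries with the same replicate number deviated from their group means with correlations of -0.33 to 0.44. The 2 libraries of a hairpin deviate as mirror images, so these values cannot decide whether the numbers mark pairs. The highest correlation between groups, 0.73, was that of shScr_4 and shEn1_2.1, which differ in number. With the replicate block 1 gene was called (*VAMP7*), the members' median of shEn1 minus shScr was 1.02 (*NEURL1B* 1.34, *TMED4* 0.60) and *ANTXR1* between the hairpins was -0.0076. In that fit shScr_3 and shScr_4, which have no partner number, add nothing to the contrast. Depth limits *CCDC80* most, at 14 counts in its lowest library.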
